A study of Mus musculus with 26 samples.

Results

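Deep later-intron peaks are peaks of RNA 5-hydroxymethylcytosine (5hmC) that lie far inside the body of a gene, in intron 2 or a later intron and away from any exon. They were taken from the peak lists of 13 immunoprecipitated (IP) libraries of mouse cells. The summit of a peak, the midpoint of its 200 bp interval, had to lie in a protein-coding gene of the GENCODE M1 annotation, outside every exon of a coding transcript and more than 200 bp from any exon. It also had to lie in intron 2 or later of the coding transcript with the longest coding sequence. Of 56538 peaks, 46415 had a summit in a coding gene and 14871 met these rules of position. A further 2159 were dropped because their interval held a tandem run, that is a unit of 1 to 4 nt repeated over at least 18 nt. The remaining 12712 peaks, 27.4% of the peaks in coding genes, merged into 5479 regions in 2754 genes. No measured level entered this choice.

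The peaks come from hMeRIP-seq, in which fragmented total RNA is pulled down with an antibody to 5hmC, sequenced and compared with its own input. Wild-type embryonic stem cells gave 3 libraries (WT ESC), and stem cells lacking Tet1, Tet2 and Tet3 gave another 3 (TKO ESC). The 3 WT EB libraries come from embryoid bodies grown from wild-type cells for 4 days without LIF, the cytokine that holds stem cells in the undifferentiated state. Tet2-KI ESC (2 libraries) express Tet2 from its own locus with Flag, HA and Twin-Strep tags, and Tet2dRBD-KI ESC (2 libraries) express the same tagged protein with the RNA-binding domain removed, labelled Tet2deltaRBD-KI. The knock-in lines were made with CRISPR-Cas9 and come from picked clones. Embryoid bodies are mixtures of cell types, so that fewer cells of a type and less RNA per cell cannot be told apart in them.

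5hmC in RNA can arise when a Tet dioxygenase oxidises 5-methylcytosine, a methylated cytosine that RNA methyltransferases place on many transcripts. Introns are transcribed with the exons and removed by the spliceosome, mostly while the polymerase is still on the gene, so a signal deep in an intron comes from RNA that has not been spliced, from an excised intron, or from another transcript of the same locus. Long genes with long introns, many of them coding for adhesion molecules and channels of neurons, supply much of the intronic sequence of the genome but are often weakly transcribed in stem cells.

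The lists differ in length, and replicate 1 of the 3 groups without a knock-in carries an earlier batch number in its description (1608, 1608 and 1610) than replicates 2 and 3 (1703). How deeply each library was sequenced is unknown. A region with no peak is one in which no peak passed the authors' threshold. Since peak lists do not measure expression, the cell labels could not be checked against marker genes. Of the 3 targeted genes only Tet1 held member peaks, 12 in 11 libraries including all 3 TKO ESC libraries, while Tet2 and Tet3 held none.

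Regions of 3 kinds of sequence are shown, read on the strand of the gene from the NCBIM37 (mm9) reference. The first kind are repeats of a longer unit than the tandem filter removed. In 483 of the 5479 regions (8.82%) at least 1 peak interval held 60 consecutive bases of which at least 54 equalled the base 1 unit further on, with a unit of 5 to 60 nt. Calm2 has a unit of 28 nt, Dyrk1a of 26 nt and Gpsm2 of 22 nt, and in these 3 sequences every other stretch of that length, counted from the first base, is in capitals. The stretches follow the copies of the unit up to the fifth, from which the copies are shifted against them.
Calm2, chr17:87837185-87837384, minus strand: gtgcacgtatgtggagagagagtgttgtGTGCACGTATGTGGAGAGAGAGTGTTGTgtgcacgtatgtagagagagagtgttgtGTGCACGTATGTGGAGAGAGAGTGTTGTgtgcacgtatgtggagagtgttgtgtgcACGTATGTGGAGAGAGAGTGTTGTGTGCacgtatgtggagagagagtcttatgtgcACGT
Dyrk1a, chr16:94851679-94851878, plus strand: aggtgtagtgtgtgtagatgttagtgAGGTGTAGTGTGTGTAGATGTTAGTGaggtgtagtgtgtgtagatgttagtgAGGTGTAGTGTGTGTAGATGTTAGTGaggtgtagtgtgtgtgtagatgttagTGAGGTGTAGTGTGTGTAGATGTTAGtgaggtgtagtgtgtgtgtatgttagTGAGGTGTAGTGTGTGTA
Gpsm2, chr3:108494422-108494621, minus strand: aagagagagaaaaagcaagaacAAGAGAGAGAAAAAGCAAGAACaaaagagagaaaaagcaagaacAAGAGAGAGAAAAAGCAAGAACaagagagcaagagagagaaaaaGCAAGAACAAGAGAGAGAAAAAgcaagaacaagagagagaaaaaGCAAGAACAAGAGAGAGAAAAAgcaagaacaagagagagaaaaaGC
The Dyrk1a interval holds 85 G and 0 C on the strand of the gene, so that the transcript of Dyrk1a itself has no cytosine there. The Calm2 interval holds 17 C among its 200 bases and the Gpsm2 interval 18.

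The second kind are purine-rich stretches without such a repeat. In the following sequences runs of at least 6 purines are in capitals. Ube2v1 was in all 13 libraries, and Blm and Agrn were chosen by their presence or absence in single groups, as described with each comparison.
Ube2v1, chr2:167440273-167440472, minus strand: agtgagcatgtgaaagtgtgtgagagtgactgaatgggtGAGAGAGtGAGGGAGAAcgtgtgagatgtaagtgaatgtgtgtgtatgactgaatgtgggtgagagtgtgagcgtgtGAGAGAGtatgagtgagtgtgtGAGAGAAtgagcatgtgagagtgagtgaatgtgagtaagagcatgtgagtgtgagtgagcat
Blm, chr7:87628093-87628292, minus strand: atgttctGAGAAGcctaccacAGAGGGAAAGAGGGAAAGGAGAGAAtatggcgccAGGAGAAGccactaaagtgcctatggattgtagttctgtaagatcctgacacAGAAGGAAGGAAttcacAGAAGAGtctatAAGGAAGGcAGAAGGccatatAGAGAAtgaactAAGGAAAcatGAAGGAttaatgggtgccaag
Agrn, chr4:155554342-155554541, minus strand: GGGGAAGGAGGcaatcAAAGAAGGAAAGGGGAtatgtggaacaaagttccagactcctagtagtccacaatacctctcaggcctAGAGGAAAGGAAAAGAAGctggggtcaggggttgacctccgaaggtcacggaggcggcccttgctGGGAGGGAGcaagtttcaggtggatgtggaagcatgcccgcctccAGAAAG
The longest purine run was 9 nt in Ube2v1, 25 nt in Blm and 18 nt in Agrn.

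The third kind have about as many pyrimidines as purines. Fto and Erc1 were present in every WT ESC and no TKO ESC library. Odz3, shown for contrast, was the only region present in every TKO ESC library and in no WT ESC library. It belongs by its region to the repeats, with a unit of 28 nt, although the single interval printed here does not pass the repeat rule.
Fto, chr8:94111252-94111451, plus strand: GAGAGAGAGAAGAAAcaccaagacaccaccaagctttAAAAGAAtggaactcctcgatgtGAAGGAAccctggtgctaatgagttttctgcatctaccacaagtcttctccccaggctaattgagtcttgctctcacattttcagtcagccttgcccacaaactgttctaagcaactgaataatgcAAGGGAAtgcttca
Erc1, chr6:119712877-119713076, minus strand: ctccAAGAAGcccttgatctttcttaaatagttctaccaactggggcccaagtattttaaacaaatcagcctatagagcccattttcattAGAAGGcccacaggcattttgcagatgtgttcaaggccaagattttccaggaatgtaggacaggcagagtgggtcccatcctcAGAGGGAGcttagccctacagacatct
Odz3, chr8:49416997-49417196, minus strand: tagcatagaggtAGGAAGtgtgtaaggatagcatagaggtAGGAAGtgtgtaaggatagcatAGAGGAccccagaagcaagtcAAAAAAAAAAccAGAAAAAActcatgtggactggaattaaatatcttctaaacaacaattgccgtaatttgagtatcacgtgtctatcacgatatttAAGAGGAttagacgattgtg
The pyrimidine content of these intervals was 49.0% in Fto, 50.0% in Erc1 and 36.5% in Odz3, with again runs of at least 6 purines in capitals.

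Deep later-intron peaks were most numerous in WT ESC and Tet2-KI ESC and fewest in WT EB. WT ESC replicates 1 to 3 held 756, 1786 and 1469 of them, TKO ESC held 131, 1173 and 772, and the embryoid bodies 90, 268 and 532. The Tet2-KI ESC libraries held 2411 and 1663 and the Tet2dRBD-KI ESC libraries 1150 and 511. Every WT ESC library lay above every WT EB library, whereas WT ESC and TKO ESC overlapped, since TKO ESC replicates 2 and 3 exceeded WT ESC replicate 1, a library of another batch. Within each batch both the number and the share of coding-gene peaks given below were higher in WT ESC than in TKO ESC without overlap, with 1 library a group in batch 1608. Both Tet2-KI ESC libraries lay above both Tet2dRBD-KI ESC libraries.

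As a share of the peaks in coding genes they made up 25.3, 33.6 and 31.6% for WT ESC, 16.7, 30.2 and 28.5% for TKO ESC and 19.8, 16.5 and 16.2% for WT EB. The shares were 28.5 and 32.0% for Tet2-KI ESC and 28.4 and 16.8% for Tet2dRBD-KI ESC. By this share WT EB stood below WT ESC in every library. As a share of all peaks, outside coding genes too, WT EB replicate 1 at 18.1% lay above WT ESC replicate 1 at 17.2%. Exonic peaks took the opposite place, at 45.6 ± 0.280% of coding-gene peaks in WT EB against 27.5 ± 5.68% in WT ESC (SD over 3 libraries).

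**Figure D1:**
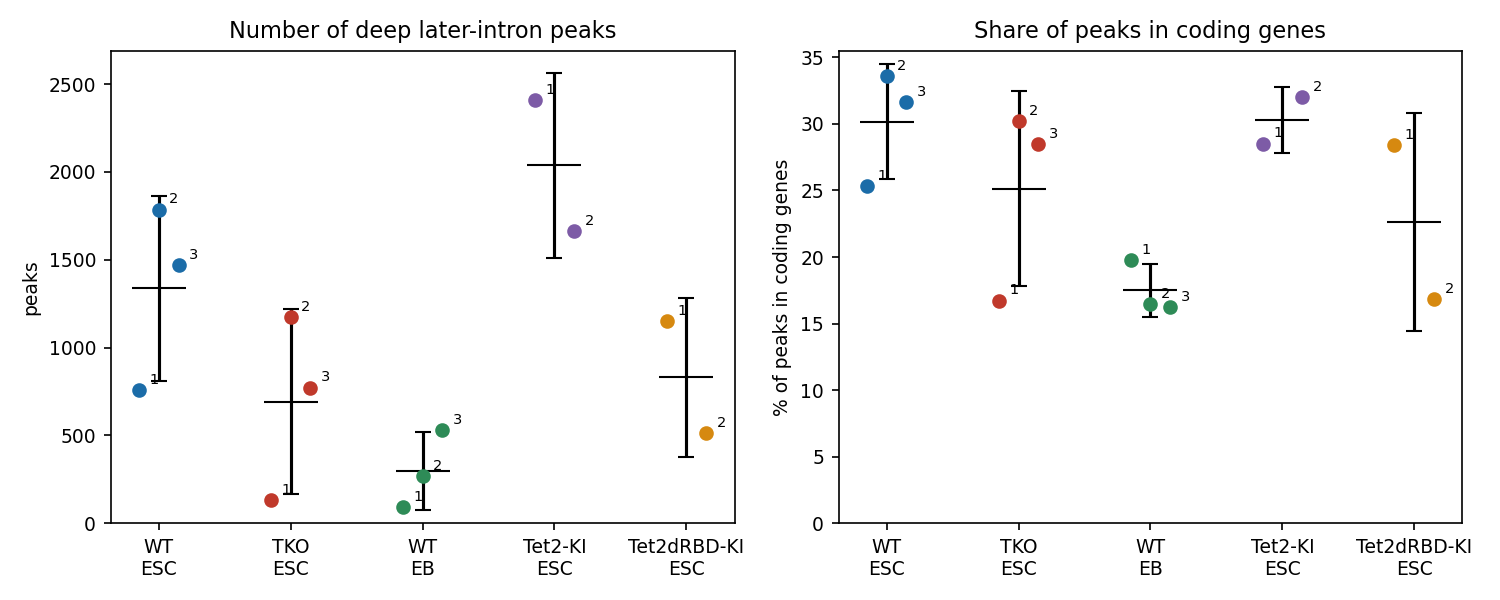
Number of deep later-intron peaks (left) and their share of the peaks in coding genes (right, percent) in the 13 libraries. Points are libraries numbered by replicate, and black bars give the mean and SD of a group. WT EB libraries lie below all WT ESC libraries on both axes.

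Later introns carried fewer peaks per length than first introns. Counted over intron sequence more than 200 bp from any exon, the 13 libraries held 0.156 to 4.19 peaks per Mb in later introns and 0.271 to 5.58 per Mb in first introns. The log2 ratio of later to first introns averaged −0.39 and was below 0 in 13 of 13 libraries (two-sided exact sign-flip permutation test over libraries, p = 0.000244, the smallest it can give). Libraries share cell lines, so the test is of these libraries only. The ratio lay closest to 0 in WT EB replicate 3 at −0.10 and farthest in Tet2dRBD-KI ESC replicate 2 at −0.91. Within later introns the number of the intron made little difference, with 9.80 regions per Mb in intron 2, 9.15 in intron 3, 9.41 in introns 4 to 5, 9.81 in introns 6 to 10 and 9.15 beyond intron 10.

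The density of regions was lowest far from the exons. It was 10.9 regions per Mb at 200 to 500 bp from the nearest exon, 11.9 at 1000 to 2000 bp, 8.67 at 5000 to 10000 bp and 5.46 beyond 20000 bp. Introns of 2000 to 5000 bp held 12.9 regions per Mb and introns over 50000 bp held 6.21. When each intron was cut into 5 equal parts from its 5′ to its 3′ end, they held 10.5, 10.6, 10.3, 8.86 and 6.90 regions per Mb. The 3′ end of later introns was therefore the poorest in regions.

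Genes that held a region were long. Their median span was 70.6 kb (2754 genes) against 20.04 kb for the 14021 coding genes with eligible later-intron sequence and no region. When the 16775 eligible genes were ranked by length into 10 classes of equal size, the share with a region rose from 0.834% in class 1, the shortest genes, to 45.1% in class 10. Longer genes also have more sequence in which a peak can fall. Per Mb of eligible intron, the regions numbered 9.62 in class 1, 15.1 in class 6 with a median gene of 28.4 kb, and 6.76 in class 10 with a median gene of 218.9 kb. The longest genes thus held more regions than any other class (2291 of 5479), at the lowest density.

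Genes with member peaks were shorter in every WT EB library than in every WT ESC library. The median gene span over the member peaks was 129.7, 104.8 and 115.2 kb for WT ESC, 128.9, 100.5 and 101.7 kb for TKO ESC and 76.8, 81.8 and 82.9 kb for WT EB. It was 88.4 and 94.9 kb for Tet2-KI ESC and 91.6 and 87.5 kb for Tet2dRBD-KI ESC. The mean log2 gene length was higher by 0.44 in WT ESC (two-sided exact permutation test, p = 0.1, the lowest value that 3 libraries against 3 allow, so that no such comparison could reach 0.05). Within the 1703 batch, with 2 libraries a group, it was higher by 0.31 (exact permutation p = 0.33, the lowest allowed). WT ESC and TKO ESC differed by 0.06 (exact permutation p = 0.6), and their libraries overlapped. This difference was 0.0073 without WT ESC replicate 1 and 0.115 without WT ESC replicate 2. With tandem runs kept it was 0.159 (exact permutation p = 0.1, the lowest allowed).

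**Figure D2:**
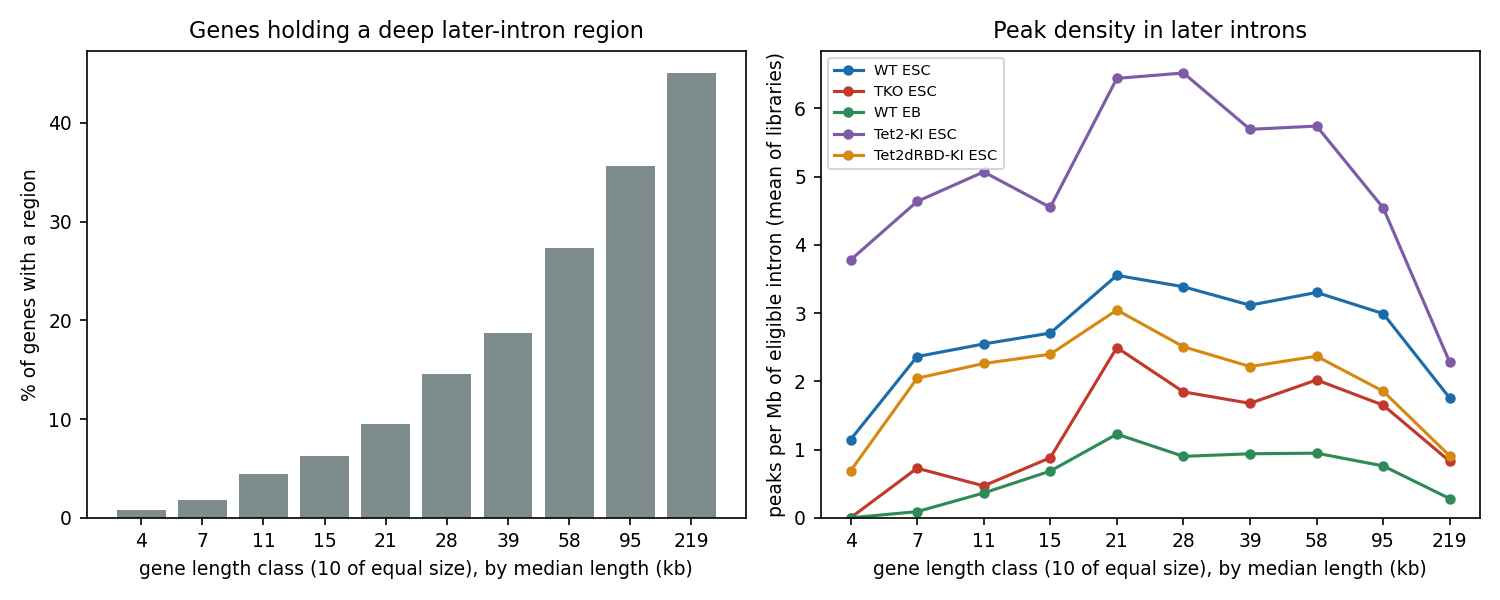
Percent of eligible coding genes with a deep later-intron region (left) and mean number of member peaks per Mb of eligible later intron in each group (right), over 10 classes of gene length of equal size, labelled by their median in kb. The share of genes rises to 45.1% in class 10, while the density of peaks is lower in class 10 than in class 6 in each of the 5 groups.

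Most regions were seen in a single library. A peak was listed in 1 library only for 2928 regions (53.4%), in at least 10 of the 13 libraries for 98 and in all 13 for 11. All 5 groups were represented in 207 regions. Regions replicated in a group, that is with a peak in every library of it, numbered 353 for WT ESC, 66 for TKO ESC, 24 for WT EB, 866 for Tet2-KI ESC and 317 for Tet2dRBD-KI ESC. The Tet2-KI and Tet2dRBD-KI numbers rest on 2 libraries each and the others on 3, so they are not on the same footing.

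Regions listed in more libraries were higher in fold enrichment, the ratio of IP to input signal at the summit. The median was 5.22 for regions in 1 library, 6.05 for 2 to 4, 7.49 for 5 to 9 and 11.3 for 10 to 13 libraries. Repeats of a longer unit also became more frequent, from 5.499% of the regions in 1 library through 10.3% and 15.4% to 37.8% of those in 10 to 13 libraries. A region counts here if any of its intervals holds a repeat, and regions of more libraries have more intervals. Part of the rise is therefore built in, and how much was not tested. Without the regions that held a repeat the median fold enrichment of the widest class was 11.1. Such repeats were found in 12.2% of member peaks, 7.64% of deep first-intron peaks and 0.931% of exonic peaks, and in 0.749% of all 200 bp tiles of the eligible intron sequence. Mean pyrimidine content fell, from 41.9 ± 10.4% in regions of 1 library through 40.5 and 39.5% to 37.1 ± 9.58% in those of 10 to 13 (SD over regions).

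**Figure D3:**
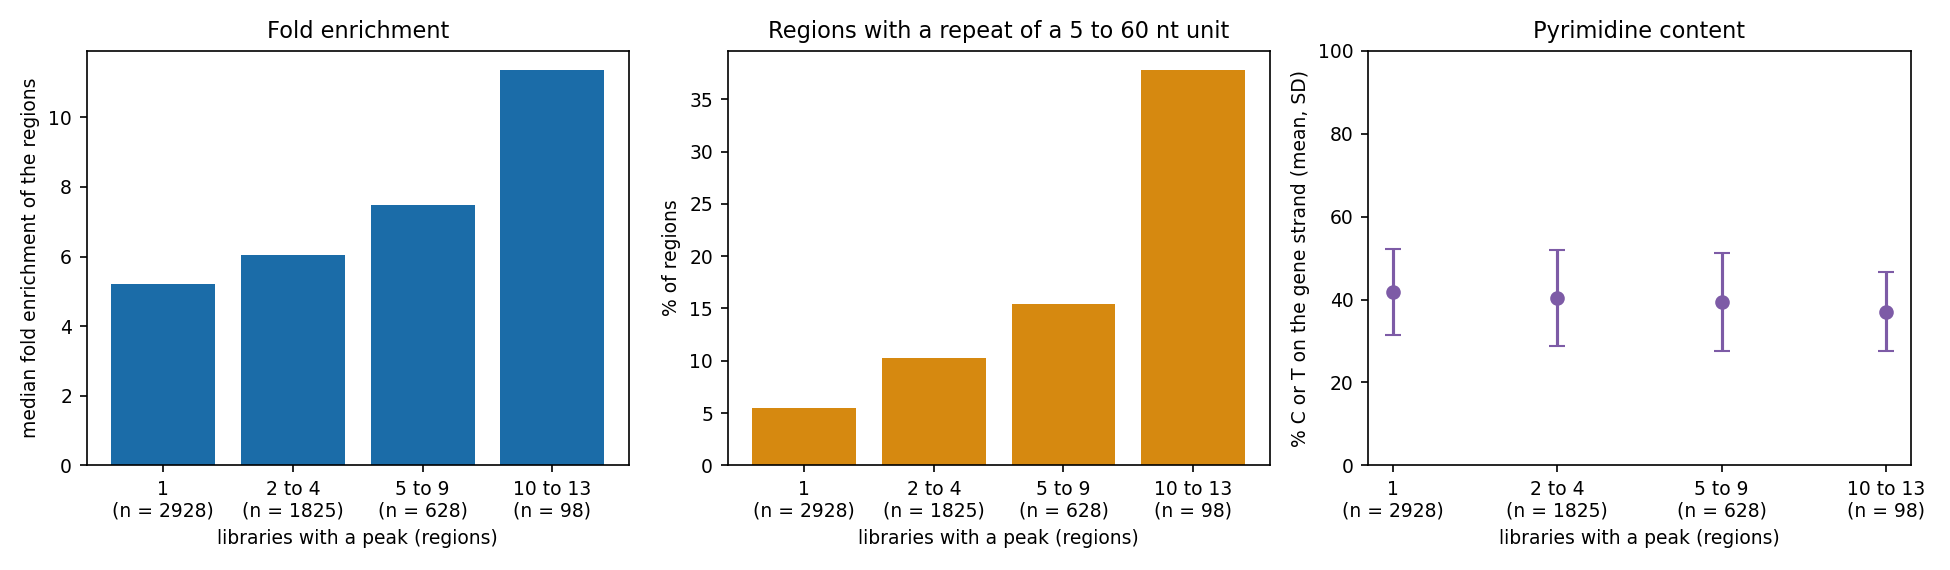
Regions grouped by the number of libraries with a peak: median fold enrichment (left), percent with a repeat of a 5 to 60 nt unit (middle) and percent of C or T on the strand of the gene (right, mean and SD over regions). Fold enrichment and the share of repeats rise from the regions of 1 library to those of 10 to 13, from 5.22 to 11.3 and from 5.499 to 37.8%. A region counts as a repeat if any of its intervals holds one, and regions of more libraries have more intervals.

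The 10 regions named for the most libraries and the highest mean fold enrichment were in all 13. Calm2 codes for calmodulin, the calcium sensor, and its region in intron 2 (chr17:87836825-87837735) held the repeat shown above. Its fold enrichment was 23.3, 35.4 and 61.3 for WT ESC, 16.4, 46.4 and 38.1 for TKO ESC and 14.8, 24.5 and 20.9 for WT EB. WT ESC and TKO ESC overlapped, and WT EB replicate 2 exceeded WT ESC replicate 1. Dyrk1a, a protein kinase, held a region in intron 2 (chr16:94851389-94852010) with 24.8, 58.6 and 25.9 for WT ESC, 13.9, 28.9 and 45.3 for TKO ESC and 12.02, 23.6 and 23.9 for WT EB. Here every WT EB value lay below every WT ESC value, by a small margin. Ube2v1, a partner of ubiquitin-conjugating enzymes, held a region in intron 3 (chr2:167440215-167440531) with 24.8, 27.1 and 32.1 for WT ESC, 12.4, 20.6 and 33.8 for TKO ESC and 10.2, 16.6 and 25.4 for WT EB. All 3 groups overlapped there.

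The other 7 were lower on average. Dhx8, a helicase that releases mRNA from the spliceosome, had a mean fold enrichment of 27.5 ± 7.02 for WT ESC, 20.3 ± 4.18 for TKO ESC and 12.3 ± 3.76 for WT EB (SD over 3 libraries). In Hnrnpf, a splicing regulator that binds G-rich RNA, the means were 17.5 ± 10.2, 24.97 ± 13.3 and 16.9 ± 9.36 in the same order. Agtpbp1 codes for a carboxypeptidase that trims glutamates from tubulin. Its region was at 11.8, 33.7 and 31.6 for WT ESC, 7.44, 42.2 and 21.3 for TKO ESC, and 6.11, 7.47 and 5.65 for WT EB, where all 3 values lay below those of WT ESC. Zfp407, a zinc finger gene of 461.7 kb, was at 14.7, 27.4 and 26.4 for WT ESC, 8.05, 8.87 and 6.63 for TKO ESC, and 8.15, 10.6 and 9.22 for WT EB. Every WT ESC value exceeded every value of the other 2 groups there. WT ESC lay above WT EB without overlap in Dyrk1a, Dhx8, Agtpbp1, Zfp407 and Kctd3. All 10 regions were chosen partly for high fold enrichment, and no test was made. Ndfip2, an adaptor of Nedd4 ubiquitin ligases, Pex5, the import receptor of peroxisomes, and Kctd3 averaged 17.8, 14.4 and 12.4 over the 9 libraries. Repeats of a longer unit lay in 7 of the 10, the exceptions being Ube2v1, Hnrnpf and Agtpbp1.

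The comparison of WT ESC with TKO ESC asked how far the peaks depend on the Tet enzymes. WT ESC libraries held more member peaks by 1.35 on the log2 scale (two-sided exact permutation test, p = 0.3). Within the 1703 batch the difference was 0.77, and with every list shortened to its 498 highest peaks by fold enrichment it was 0.35 (exact permutation p = 0.3). The share of coding-gene peaks was higher in WT ESC by 5.02 points (exact permutation p = 0.4), by 3.24 points within the 1703 batch, by 0.175 points as a share of all peaks, in coding genes or not (exact permutation p = 1), and by 10.5 points in lists of equal length (exact permutation p = 0.1, the lowest allowed). With tandem runs kept, the share of coding-gene peaks was higher by 10.5 points too (exact permutation p = 0.1). Without TKO ESC replicate 1, with its 131 member peaks, the log2 difference in number was 0.40 and the share differed by 0.811 points, and without TKO ESC replicate 2 these were 1.98 and 7.55 points. The median fold enrichment was 6.53, 5.99 and 6.12 for WT ESC and 7.23, 7.35 and 6.52 for TKO ESC, lower in WT ESC by 0.18 on the log2 scale (exact permutation p = 0.2).

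Of the 353 regions replicated in WT ESC, 106 or 30.0% (exact 95% interval 25.3 to 35.1%), lacked a peak in all TKO ESC libraries. Over all replicated WT ESC regions of the series the same share was 32.2%. Of the 66 regions replicated in TKO ESC, 1 or 1.52% (0.0384 to 8.16%) had no WT ESC peak, beside 1.73% over all regions. The members thus stood close to the background in both directions. Within the 1703 batch, where replication rests on 2 libraries, the shares were 39.5% and 16.4%, and without TKO ESC replicate 1 alone the second was 15.02%. Of exonic WT ESC regions 16.9% (13.4 to 20.8%) had no TKO ESC peak, an interval below that of the members, of deep first-intron regions 30.5% (23.03 to 38.8%) and of deep intronic regions with a tandem run 39.0% (31.8 to 46.6%). The difference between these classes of region was not tested, and the intervals cover counting error only.

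The 106 regions without a TKO ESC peak were weaker and more pyrimidine-rich in WT ESC than the 247 with such a peak. Their median fold enrichment was 7.01 against 9.33, and at least 65% of the bases were pyrimidines in 19 of 106 against 18 of 247. Mean pyrimidine content was 45.7 ± 18.7% against 40.1 ± 14.8% (SD over regions), and the median gene span 151.5 against 115.7 kb. These are descriptions of regions from the same 3 WT ESC libraries, which are not independent of each other.

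Of the regions without a TKO ESC peak, 5 were named for the highest fold enrichment in their lowest WT ESC library. Erc1, a scaffold of the presynaptic active zone, reached 10.98, 18.8 and 13.1 in WT ESC replicates 1 to 3. Fto, an RNA demethylase, reached 11.9, 16.3 and 10.4, and Epha4, an ephrin receptor, 10.2, 14.7 and 13.97. Both Tet2-KI ESC libraries also had a peak in the Erc1 region, while in Fto and Epha4 1 of the 2 did. Med13l, a subunit of the Mediator kinase module, reached 9.51, 14.7 and 10.2, and Adat1, a tRNA deaminase, 11.3, 9.15 and 13.8. The Adat1 region was present in all 4 knock-in libraries. None of the 5 held a repeat of a longer unit, and none had a WT EB peak. In the other direction Odz3, a teneurin of neuronal adhesion, had fold enrichments of 7.25, 4.89 and 5.60 in TKO ESC, and 3 of the 4 knock-in libraries had a peak there. Unlike the 5 above, this region held a repeat of a longer unit.

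The comparison of WT ESC with WT EB asked what happens to the peaks on differentiation. WT ESC libraries held more member peaks by 2.42 on the log2 scale and their share of coding-gene peaks was higher by 12.7 points (two-sided exact permutation tests, p = 0.1 for both, the lowest allowed). Within the 1703 batch these differences were 2.10 and 16.2 points (exact permutation p = 0.33 for both, the lowest allowed). With tandem runs kept they were 2.68 and 19.9 points (exact permutation p = 0.1 for both). Without WT EB replicate 1, with its 90 member peaks, the log2 difference in number was 1.73, and without WT EB replicate 3 it was 3.02. As a share of all peaks the difference was 5.71 points (exact permutation p = 0.2) and the groups overlapped. In lists of equal length, 498 peaks each, the members numbered 116, 162 and 146 in WT ESC and 90, 60 and 32 in WT EB, a log2 difference of 1.33, and their shares differed by 22.8 points (exact permutation p = 0.1 for both). The direction was the same in lists of equal length, but these keep the peaks highest in fold enrichment. Members differed from other coding-gene peaks in log2 fold enrichment by 0.126 in WT ESC and by −0.086 in WT EB (means of 3 libraries). The cut can thus favour members in WT ESC, and the part played by list length was not tested. Median fold enrichment did not follow the number of peaks, with 5.56, 7.07 and 6.32 in WT EB and overlapping values in WT ESC (log2 difference −0.02, exact permutation p = 0.9).

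Of the 353 replicated WT ESC regions, 212 or 60.1% (54.7 to 65.2%) had no WT EB peak, beside 54.9% over all regions. No region of the 24 replicated in WT EB lacked a WT ESC peak (0%, upper limit of the exact interval 14.2%), beside 2.61% over all regions. Without WT EB replicate 1, the shortest list, 21 of 167 or 12.6% did. Exonic regions lacked a WT EB peak in 26.5% (22.3 to 30.9%) and regions within 200 bp of an exon in 29.8% (23.8 to 36.4%), while deep first-intron regions were at 61.7% (53.1 to 69.8%) and deep intronic regions with a tandem run at 71.2% (63.9 to 77.7%). The intervals of the 3 deep intronic classes overlapped each other and lay above those of both other classes, a difference that was not tested. Member regions with no WT EB peak had a lower median fold enrichment in WT ESC (7.40 against 10.2) and lay in longer genes (median 139.3 against 97.9 kb) than the 141 others. A pyrimidine content of at least 65% was found in 31 of 212 and 6 of 141.

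**Figure D4:**
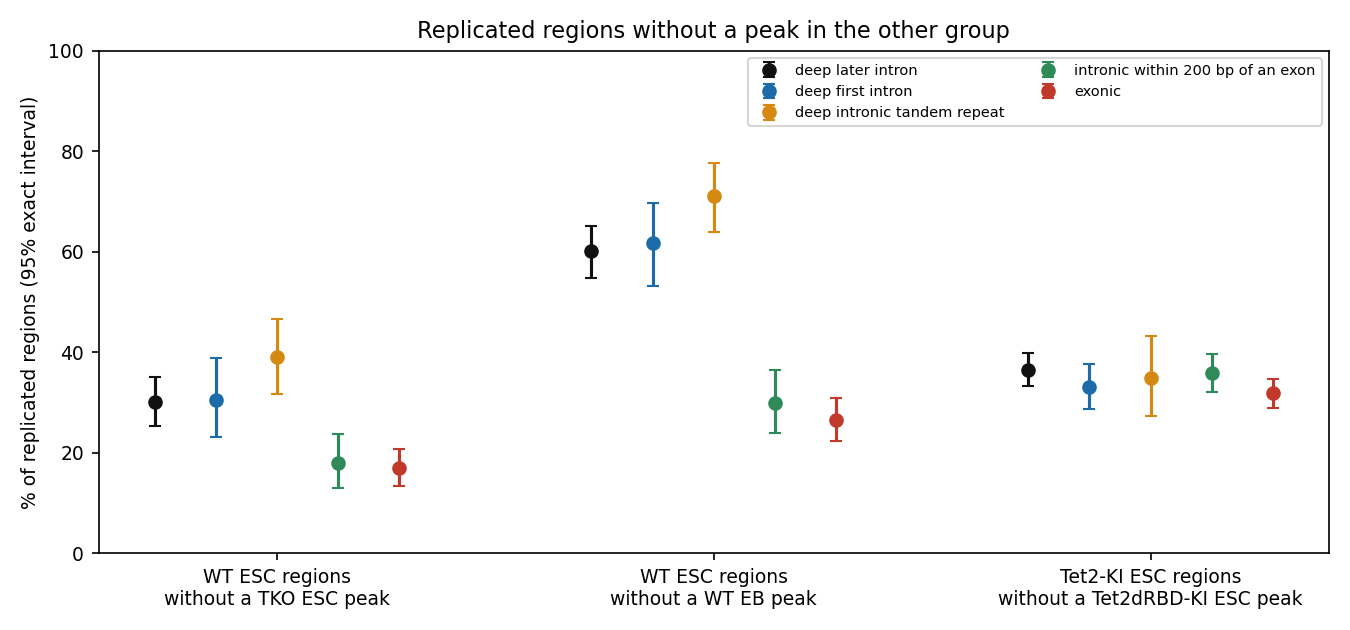
Percent of the regions replicated in one group that have no peak in the other, by the position of the region, with exact 95% intervals that cover counting error only. Deep later-intron regions lie above exonic regions for both comparisons of WT ESC, at 30.0 against 16.9% for TKO ESC and 60.1 against 26.5% for WT EB.

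Where both states had a peak, the enrichment was lower in each embryoid body library. In 22 regions every WT ESC and WT EB library had a peak, and the median fold enrichment over them was 11.5, 23.8 and 20.2 for WT ESC and 7.16, 10.6 and 11.3 for WT EB. All WT EB values lay below all WT ESC values, by a mean of 0.89 on the log2 scale (two-sided exact permutation test, p = 0.1, the lowest allowed). In the 56 regions with a peak in every WT ESC and TKO ESC library the medians were 10.7, 13.8 and 13.5 for WT ESC and 7.96, 13.1 and 11.5 for TKO ESC. These differed by 0.24 and overlapped (exact permutation p = 0.5). Both of these values came from an alternative chosen after seeing the data.

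Of the regions without a WT EB peak, 5 were named by the same rule. Ebf1, a transcription factor of B cells, reached 12.96, 13.5 and 13.2 in WT ESC, and the 2 TKO ESC libraries with a peak reached 9.46 and 9.64. Agrn, the agrin of basement membranes and synapses, reached 11.8, 13.9 and 12.3 in WT ESC and 7.35 in 1 TKO ESC library. Rbm7, part of the complex that directs nuclear RNA to the exosome, reached 17.7, 21.4 and 11.4 in WT ESC and was present in all 4 knock-in libraries. For Cdh4, the R-cadherin, a region in intron 2 reached 12.6, 17.3 and 17.5 in WT ESC and 9.62, 9.85 and 17.7 in TKO ESC. Mbnl2, a muscleblind splicing factor, reached 11.3, 13.7 and 16.7 in WT ESC and 4.10, 20.3 and 7.62 in TKO ESC, and its region was present in 10 libraries, that is in all but those of WT EB.

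**Figure D5:**
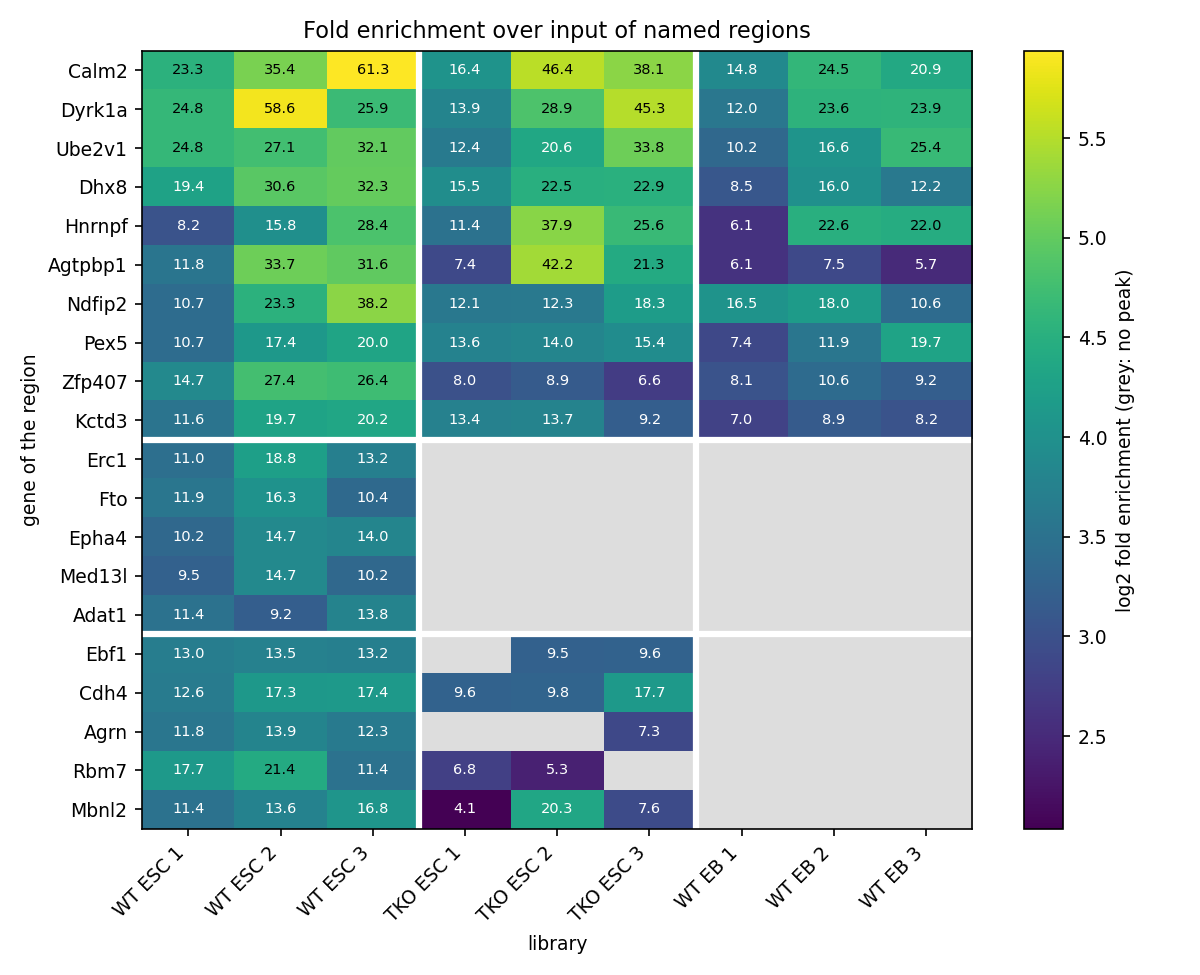
Fold enrichment over input of the named regions in the 9 libraries with this measure, coloured on a log2 scale, with grey where a library has no peak. The upper block holds the 10 regions present in all 13 libraries, the middle block 5 regions of WT ESC without a TKO ESC peak and the lower block 5 without a WT EB peak.

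The knock-in lines address what the RNA-binding domain contributes. Tet2-KI ESC held more member peaks than Tet2dRBD-KI ESC by 1.39 on the log2 scale, and their share of coding-gene peaks was higher by 7.65 points (two-sided exact permutation tests, p = 0.33 for both, the lowest value that 2 libraries against 2 allow). The share in Tet2dRBD-KI ESC replicate 1 (28.4%) nearly equalled that in Tet2-KI ESC replicate 1 (28.5%), and as a share of all peaks the lines overlapped (difference 5.90 points, exact permutation p = 0.67). Without Tet2dRBD-KI ESC replicate 2 the differences were 0.80 and 1.86 points, and without its replicate 1 they were 1.97 and 13.4 points. These lists hold positions only, so no fold enrichment could be compared.

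Of the 866 regions replicated in Tet2-KI ESC, 316 or 36.5% (33.3 to 39.8%), were without a Tet2dRBD-KI ESC peak, beside 35.6% over all regions. In the other direction 16 of 317, or 5.05% (2.91 to 8.07%), were without a Tet2-KI ESC peak, beside 15.8% over all regions and 22.3% (19.0 to 25.9%) of exonic regions. For deep first-intron regions it was 11.5% (7.43 to 16.8%) and for deep intronic regions with a tandem run 8.70% (2.42 to 20.8%). The interval of the members lay below that of exonic regions and overlapped those of both other deep classes, and these differences were not tested. Both shares rose when any of the 4 libraries was left out, the first to between 41.8% (without Tet2dRBD-KI ESC replicate 2) and 68.2% (without its replicate 1), the second to between 16.1% (without Tet2-KI ESC replicate 2) and 26.7% (without Tet2dRBD-KI ESC replicate 2). Of the regions present in Tet2-KI ESC and absent from Tet2dRBD-KI ESC, Map3k2, a MAP kinase kinase kinase, Gpsm2, which orients the mitotic spindle, and Blm, the Bloom helicase, were each present in 7 of the other 9 libraries. Their mean fold enrichment in WT ESC was 11.5 ± 0.538, 7.003 ± 3.07 and 7.33 ± 2.997 (SD over 3 libraries). Regions of the opposite pattern were in Lnp, an endoplasmic reticulum shaping protein present in 5 of the other 9 libraries, Cux2, a homeodomain factor, in 3, and Rere, a co-repressor, in 2.

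The base composition of the regions differed from that of the introns they lie in. On the strand of the gene, 1 interval a region held 30.0% A, 16.6% C, 29.0% G and 24.4% T, against 27.7, 20.8, 21.3 and 30.3% over the eligible later-intron sequence. Averaged over the member peaks of a library, the pyrimidine content was lower than that of the intron sequence by 11.7 points, and lower in 13 of 13 libraries (two-sided exact sign-flip permutation test, p = 0.000244, the smallest it can give). This test too is of these libraries only, since they share cell lines. At most 35% of the bases were pyrimidines in 26.7% of regions and 1.62% of tiles. A run of at least 12 purines was found in 36.8% of regions and 12.9% of tiles, and a run of at least 12 pyrimidines in 7.59% and 15.98%. The set was not purely one-sided, since at least 65% pyrimidine was also somewhat more frequent in regions (4.10%) than in tiles (2.80%). At most 10 cytosines on the strand of the gene occurred in 2.43% of regions and 0.105% of tiles, and none at all in 10 regions. Whether the libraries kept the strand of the RNA is not given in the sources used here, so that a signal from the opposite strand and one from the gene's own RNA cannot be told apart.

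Motifs were searched on the strand of the gene, and those of purines or pyrimidines also as their reverse complements. GAGAGA was found in 25.97% of regions and 8.43% of tiles, AGAGAG in 27.4 and 9.16%, GGAGGA in 16.9 and 7.22% and AAGAAG in 16.5 and 8.996%. The reverse complements of these 4 were below the tiles, with TCTCTC in 6.24 and 9.24%, CTCTCT in 6.55 and 9.94%, TCCTCC in 3.33 and 7.93% and CTTCTT in 4.12 and 10.99%. Regions without a longer-unit repeat held GAGAGA in 26.5%. Motifs of other kinds were nearer to the tiles: GGACT, a core of the m6A motif, in 16.2 and 14.45%, the poly(A) signal AATAAA in 9.79 and 12.8%, the 5′ splice site letters GTAAGT in 5.16 and 3.73%, and CG in 71.7 and 72.2%. TGTGTG was found in 18.5 and 12.3% and CACACA in 9.05 and 9.48%. AAAAAA was at 11.2% in both and TTTTTT at 5.47 and 15.2%. GAGAGA and AGAGAG overlap each other, as do TCTCTC and CTCTCT, so their shares are not independent. Of the 64 hexamers with the highest ratio of regions to tiles, 38 were made of purines only. Ranked were the 2849 hexamers found in at least 100 regions, and the share of purine-only hexamers among them was not counted. Rarer hexamers with CG also ranked high. GACGGA came first, in 1.83% of regions and 0.586% of tiles, and GGCGGG was found in 2.80 and 0.947%.

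Pyrimidine content varied between the groups by a few points. It was 41.0, 41.2 and 41.0% for WT ESC, 35.8, 38.5 and 40.5% for TKO ESC and 40.2, 38.3 and 38.2% for WT EB, with every WT ESC library above every library of the other 2 groups. The differences were 2.78 points to TKO ESC and 2.19 to WT EB (two-sided exact permutation tests, p = 0.1 for both, the lowest allowed), and within the 1703 batch 1.62 and 2.89 points (exact permutation p = 0.33 for both, the lowest allowed). Without TKO ESC replicate 1 the difference to TKO ESC was 1.56 points, and without TKO ESC replicate 3 it was 3.89. With longer-unit repeats dropped WT EB replicate 1 was at 41.8% and WT ESC at 41.2 to 41.7%, so that these groups overlapped (difference 1.87 points, exact permutation p = 0.4). The difference to WT EB was 1.90 points more than 1000 bp from any exon (exact permutation p = 0.2) and 1.52 among peaks at or above the median fold enrichment of their list (exact permutation p = 0.4). In lists of equal length the differences were 1.56 (exact permutation p = 0.3) to TKO ESC and 0.612 points (exact permutation p = 0.4) to WT EB, and the groups overlapped. TCTCTC was found in 8.32% of the member peaks of WT ESC and in 3.38 to 4.62% of those of each other group, libraries pooled. For CTCTCT, which overlaps it, the values were 8.27% against 3.04 to 5.09%, and for TCCTCC 3.52% against 1.58 to 2.73%. CTTCTT did not follow this order. It was most frequent for WT EB (3.94%), followed by TKO ESC (3.91%), WT ESC (3.67%), Tet2-KI ESC (3.47%) and Tet2dRBD-KI ESC (3.38%). These differences between groups were not tested.

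The share of purines was 58.2% within 25 bp of the centre of the intervals and was not even on both sides of it. It reached 64.6% between 100 and 150 bp upstream, on the strand of the gene, against 55.9% at the same distance downstream. The highest value at a single position was 66.4%, 119 bp upstream. Between 200 and 250 bp it was 56.5% upstream and 52.7% downstream. The purine-rich stretch thus lay before the centre of the intervals, with its highest share outside the 200 bp interval.

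Many genes held more than 1 region. They were ranked by their regions over all libraries together. Of all 5479 regions, 2789 had a WT ESC peak, 1517 a TKO ESC, 649 a WT EB and 3274 a Tet2-KI ESC peak. The counts of single genes below were not tested against these. Exoc4, a subunit of the exocyst that tethers secretory vesicles, held 40 regions over 683.9 kb of eligible later intron, 20 of them with a WT ESC, 15 with a TKO ESC and 5 with a WT EB peak. Etl4 held 24, of which 18 had a TKO ESC and 10 a WT ESC peak. Msi2, an RNA-binding Musashi protein, held 23, with 16 in Tet2-KI ESC, 8 in WT ESC and 1 in TKO ESC. Smyd3, a methyltransferase with a SET domain, held 23 and Adam23, a cell adhesion protein, 21. Klf12, a Krüppel-like transcription factor, held 15, all of which had a TKO ESC peak in at least 1 library while 6 had a WT ESC peak. Others among the genes with most regions were Epb4.1l4a (19), Immp2l (16) and Cdh4 (15). Of the densest genes with at least 5 regions, Apbb3 had 148 regions per 100 kb, followed by Tnks1bp1, a tankyrase-binding protein, with 38.2, the glycolytic enzyme gene Gpi1 with 33.5 and Ptcd3, a protein of the mitochondrial ribosome, with 30.5. These 4 genes held 5 regions each and spanned 8.21 to 28.2 kb, beside a median of 24.5 kb over all eligible genes.

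Gene groups were read against 16.4% of all 16775 eligible genes with a region, at a median gene span of 24.5 kb, since a group of longer genes offers more sequence. The density of regions was above the 9.48 per Mb over all genes in 11 of the 12 lists, from 9.91 for DNA methylation enzymes to 88.9 for ribosomal protein genes, which offer the least intron sequence. The value over all genes includes length class 10, at 6.76 per Mb. Classes 5 to 8, with genes of 18.0 to 72.2 kb, held 13.6 to 15.1 per Mb. Of the lists with a median gene in that range, DNA methylation and BAF and NuRD lay below these densities. The Polycomb, splicing, LIF, FGF and Wnt, cohesin and DNA damage lists lay above them. Among genes of the Polycomb repressive complexes, which silence developmental genes, 11 of 26 held a region (42.3%, median gene 33.4 kb), or 36.5 regions per Mb. Numbers of libraries here are those of the region with the most. Phc1 was present in 11 libraries, at a fold enrichment of 7.29 ± 2.68 over the WT ESC libraries (SD, n = 3), a mean of 14.47 in 2 TKO ESC libraries and 8.02 in 2 WT EB libraries. Mtf2 was present in 6 libraries, Suz12 in 5, none of them WT ESC, and Jarid2 in 5. Of histone lysine methyltransferases and demethylases, 17 of 33 held a region (51.5%, median gene 76.1 kb, 19.9 regions per Mb), among them Kdm3a in 7 libraries and Mll3 in 6. BAF and NuRD remodellers were at 7 of 27 (25.9%, median gene 30.9 kb). Their 10.3 regions per Mb lay near the 9.48 over all genes and below the 15.1 of length class 6, which holds that median. Arid1b, a BAF subunit, was present in 10 libraries but none of WT EB.

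Genome maintenance and ubiquitin genes were similar in share. Cohesin, condensin and CTCF genes held regions in 12 of 24 (50.0%, median gene 47.7 kb), with Stag1, a cohesin subunit, in 9 libraries. The DNA damage list was at 17 of 37 (45.9%, 51.4 kb). In it Msh3, a mismatch repair protein, was present in 11 libraries with 12.7 ± 5.74 for WT ESC and 10.3 ± 2.08 for TKO ESC (SD over 3 libraries), and 4.88 in 1 WT EB library. Ubiquitin ligase and proteasome genes were at 21 of 42 (50.0%, 95.9 kb), with Trip12 in 10 libraries and Usp15 in 7.

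Genes of splicing and RNA-binding proteins held a region in 12 of 41 (29.3%, 22.7 kb), among them Elavl1, which binds AU-rich RNA, in 11 libraries and Rbfox2 in 10. Of the LIF, FGF and Wnt list, 14 of 37 held a region (37.8%, 61.4 kb), with Tcf7l2 in 5 libraries. None of its 22 regions was replicated in WT ESC, beside 353 of 5479 over all genes, so a count of 0 is near that background. The pluripotency factors were at 4 of 16 (median gene 13.9 kb), namely Rif1, Tcf7l1, Esrrb and Nr5a2. Rif1 had 7.64 ± 3.30 in WT ESC (SD, n = 3) and no peak in any other group. The DNA methylation list was at 2 of 14 (14.3%), namely Tet1 in 11 libraries and Mbd2 in 7. Ribosomal protein genes, with a median span of 4.04 kb, were at 4 of 53 (7.55%), each in at most 3 libraries.

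Neuronal adhesion and axon guidance genes had the longest genes and the lowest density of the 12 lists. Of 92 eligible genes with a median span of 521.0 kb, 35 held a region (38.0%), but at 2.49 regions per Mb. Odz4, a teneurin, was present in 12 libraries with 11.3 ± 2.69 for WT ESC and 20.5 ± 15.5 for TKO ESC (SD over 3 libraries). Of 13 regions of the list replicated in WT ESC, 3 had no TKO ESC peak, beside 32.2% of all regions, and 10 had no WT EB peak, beside 54.9%. These lists were chosen with earlier results of these data known, and their counts are descriptions without a test.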

How the data were processed

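The series holds 13 IP libraries of mouse cells and 13 input libraries, the latter used here only through the peaks. Groups and replicate numbers came from the sample titles. Reads of low complexity and those of rRNA or tRNA were removed by the authors, who trimmed the rest with Trimmomatic, mapped it with STAR to mm9 with a RefSeq transcriptome, called peaks with MACS2 (each IP against its own input, q-value below 0.05) and resized them to 200 bp around the summit. The submitters' processing notes name FastQC, Trimmomatic, Bowtie2, STAR, MACS2 and mm9, without versions. The deposited lists of the 9 libraries without a knock-in also hold the fold enrichment at the summit, a ratio of IP to input by the authors' peak caller. Those of the knock-in libraries hold positions only. Library strandedness is not given in the sources used here, and counts of reads were not used, so depth is unknown and no floor could be given.

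Python 3.11.15 with scipy 1.17.1, numpy 2.4.6, pandas 2.3.3 and matplotlib 3.10.9 was used with NCBIM37 (mm9) and GENCODE M1. The eligible sequence, later introns more than 200 bp from any exon, came to 575.3 Mb, and that of first introns to 214.3 Mb. A summit in more than 1 qualifying gene (69 peaks) was counted once. In 27 peaks the genes lay on both strands, and these were left out of the sequence counts, which cover 5467 regions. Peaks were merged into regions where intervals overlapped by at least 1 bp. Libraries were compared by two-sided exact permutation tests, which cannot give a p-value below 0.1 with 3 libraries against 3 or below 0.33 with 2 against 2. No difference between groups could therefore reach 0.05. The p-values measure the spread between these libraries. The 95% intervals of shares are exact (Clopper-Pearson) and cover counting error only. No library was a duplicate of another, since any list shared at most 2.29% of its exact intervals with another.

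The named regions were the 10 in most libraries, the 5 replicated in WT ESC without a TKO ESC peak and the 5 without a WT EB peak with the highest lowest fold enrichment, up to 3 each of the opposite patterns, and 3 each present in both libraries of 1 knock-in line and absent from the other. Named genes were the 10 with most regions, the 5 densest with at least 5 regions, and up to 4 of each gene list by the number of libraries. The regions shown as sequence were picked from these. Some items that these rules select are not reported here. Members and lists were chosen with earlier results of these data known. Alternatives were another distance from exons, tandem runs kept, later introns of every coding transcript, stricter fold enrichment, merging, equal list length, the 1703 batch only, overlap of 100 bp, presence in at least 2 of 3 replicates, the share of all peaks, a replicate block and leaving out each library. Fold enrichment over regions with a peak in all 6 libraries, and the removal of repeats with a unit of 5 to 60 nt, were chosen after seeing the data. The counting code was tested on simulated presence tables with 200 planted regions in each of 3 comparisons, of which 100% were recovered.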

Additional observations from a re-analysis of the deposited data

How the results depend on the processing

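Of 317 repeats of a result under an alternative, 285 kept the sign and the side of 0.05 of the main result or lay close to its value. Reversals touched fold enrichment and gene length, both of which had small main differences. With peaks at or above the median fold enrichment of their list, the members lay below other coding-gene peaks by −0.024 on the log2 scale (exact sign-flip permutation p = 0.492), against 0.041 over all peaks (p = 0.449, exact). Leaving out 1 library gave −0.11 to 0.067 for the WT ESC and WT EB difference in log2 fold enrichment, and dropping longer-unit repeats gave 0.0061. Over regions with a peak in all 6 libraries the differences were 0.24 to TKO ESC and 0.89 to WT EB. Dropping longer-unit repeats turned the WT ESC and TKO ESC difference in log2 gene length to −0.012. The cause was not tested.

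Shares of replicated regions without a peak in the other group also moved. In the 1703 batch 39.5% of WT ESC regions had no TKO ESC peak, 16.4% of TKO ESC regions no WT ESC peak and 67.8% of WT ESC regions no WT EB peak. With presence in at least 2 of 3 replicates these were 42.7, 14.2 and 70.0%, and with the stricter fold enrichment the last was 66.3%. Leaving out 1 library gave 30.9 to 41.4%, 1.52 to 15.0% (the highest without TKO ESC replicate 1) and 62.9 to 68.8%, and 41.8 to 68.2% and 16.1 to 26.7% for the knock-in lines.

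Deviations of same-numbered libraries correlated at −0.018 to 0.11 across regions, and those of differently numbered libraries at −0.077 to 0.050. The highest values were those of WT ESC replicate 1 with TKO ESC replicate 1 (0.11) and with WT EB replicate 1 (0.093). These are the libraries of the earlier batches, so that replicate number and batch cannot be told apart. A replicate block left each difference as it was, with p = 0.25 (exact permutation, the lowest that 3 pairs allow) for the number of peaks in WT ESC against TKO ESC, 1.35 on the log2 scale, and against WT EB, 2.42. No comparison of groups could pass 0.05 with or without the block, so no call could change. Depth is unknown.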
